A study of Drosophila melanogaster with 4 samples.

Results

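Cytochromes P450, glutathione S-transferases (GSTs) and UDP-glycosyltransferases (UGTs) were followed in heads of male Drosophila melanogaster given vigabatrin. They were taken by name: every probe with a single gene whose current symbol begins with Cyp and a family number and letter, with Gst and a class letter, or with Ugt. This gave 174 probes for 107 genes, out of 6793 genes named by 7558 single-gene probes on the array. The set held 134 P450 probes for 72 genes, 28 GST probes for 23 genes and 12 UGT probes for 12 genes.

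Both groups were Oregon-R wild-type males, unmated and 10 to 11 days old when the diets began, kept in vials of 30 flies. The treated group spent 3 days on food with vigabatrin (VGB) at 24 mg/ml, and the control group spent the same time on normal food (NF) without it. VGB is an antiepileptic drug that inactivates GABA transaminase and so slows the breakdown of GABA, the main inhibitory transmitter. RNA from pooled heads of a treated and an untreated set was hybridised together on each of 4 two-colour arrays of spotted cDNA, 1 array per biological replicate. A head holds brain, eyes, antennae, muscle and fat body, so fewer cells of a type and less RNA per cell cannot be told apart.

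The families make up most of what is known as drug or xenobiotic metabolism. P450s are haem enzymes that put an oxygen atom into a substrate, GSTs join glutathione to reactive compounds, and UGTs join a sugar to them. In flies many of these enzymes are made in fat body, gut and Malpighian tubule and are induced by foreign compounds, while others serve hormone, pheromone or odorant turnover in sensory organs and in the fat body of the head. Insect P450s fall into 4 clans, of which CYP3 (with CYP6, CYP9 and CYP28) and CYP4 hold most of the genes tied to foreign compounds.

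Each value below is the log ratio of the 2 dyes, taken as log2, averaged over the 2 adjacent spots of a probe and set relative to the median of its array. The arrays of replicates 1 and 2 carried VGB in Cy5 and those of replicates 3 and 4 carried it in Cy3. Whether the deposited ratios of replicates 3 and 4 are Cy5 over Cy3 or VGB over NF is not stated, and the data do not settle it. Values of single arrays are therefore given with the sign as deposited, and means are given in both codings: with replicates 3 and 4 turned (Cy5 over Cy3), and with all 4 arrays taken as VGB over NF. Values were present for 2822, 1280, 1517 and 3231 of the 13824 probes on replicates 1 to 4, and the medians removed were 1.03, 1.03, 0.51 and 0.44.

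Most probes of the 3 families gave no signal that passed the authors' spot filters. A value on any array was present for 49 of the 174 probes (28.2%), against 3118 of 7558 single-gene probes (41.3%). Counted by gene the shares were close, with 45 of 107 member genes against 2933 of all 6793. These were 35 of 72 P450, 7 of 23 GST and 3 of 12 UGT genes. Values on at least 3 arrays, which the test needs, were present for 8 probes (4.60%), against 585 (7.74%). With the probes of a gene averaged, 8 of the 107 genes had them, against 565 of the 6793. Of the others, 8 probes had values on 2 arrays, 33 on 1 array and 125 on none. CYP4 probes had a value in 20 of 53 cases (37.7%) and CYP3 probes in 16 of 63 (25.4%). The mitochondrial clan had 2 of 12, and the CYP2 clan, known for hormone-making enzymes, 1 of 6. Among GSTs, the delta class had 2 of 14 and the epsilon class 3 of 8, the theta and zeta classes 1 of 2 each, and the omega class 0 of 2. UGTs had 3 of 12, all on replicate 4 alone. A missing value says only that a spot did not pass, since the intensities behind the ratios were not used here.

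No member passed the test in either coding. Limma called 0 of the 8 tested probes at an adjusted p of 0.05 with replicates 3 and 4 turned, where it called 0.0898% of all 1114 tested probes higher and 0.269% lower (1 and 3 probes, 0.359% together). With all arrays taken as VGB over NF it called 0 of 8, against 0% of the 1114. At an unadjusted p under 0.05 the counts were 1 of 8 in each coding, Cyp28d1 in the first and Cyp4ae1 in the second, against 8.44% and 14.0% of all tested probes. The member count with a one-class SAM on the turned values, the authors' kind of test, was also 0.

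**Figure D1:**
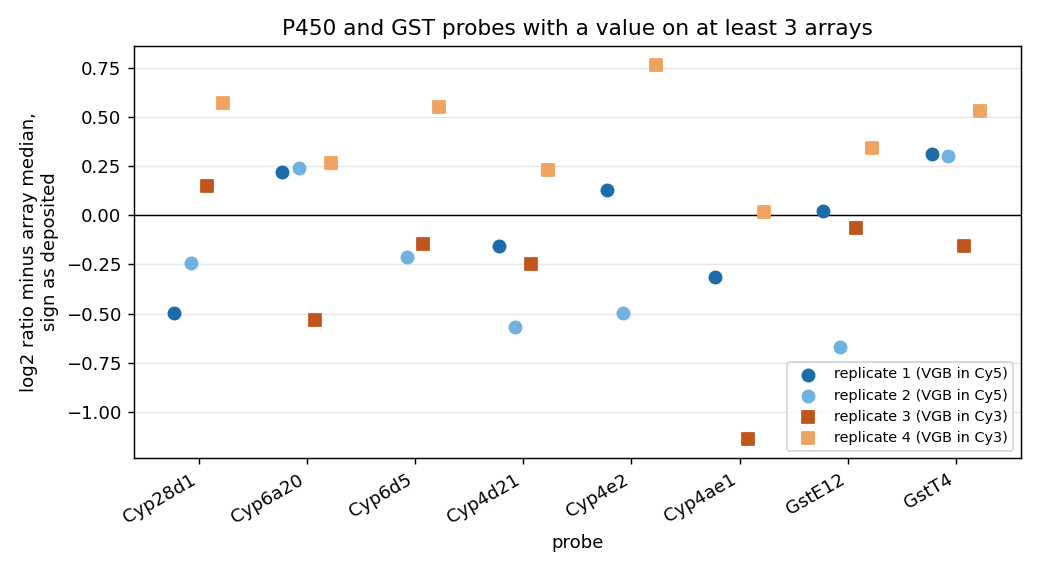
Log2 ratio minus the array median, with the sign as deposited, for the 8 probes with a value on at least 3 arrays. Circles are the arrays with VGB in Cy5 and squares those with VGB in Cy3. Cyp28d1 alone has both circles below 0 and both squares above it, and all 8 replicate 4 values lie above 0.

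Cyp28d1, a CYP3 clan enzyme known in flies for induction by plant toxins and for a part in nicotine tolerance, had the most regular pattern. Its values were -0.50 and -0.24 on replicates 1 and 2 and 0.15 and 0.57 on replicates 3 and 4. The arrays of either dye order thus shared a sign, and the dye orders lay on opposite sides of 0 without overlap. With replicates 3 and 4 turned, the mean was -0.37 ± 0.20 (SD, n = 4), below 0 on 4 of 4 arrays, with a 95% interval of -0.67 to -0.06 (limma adjusted p = 0.45). A value below 0 on all 4 arrays was found for 11.5% of the 591 probes measured on all 4. With all arrays taken as VGB over NF, the mean was -0.00425 ± 0.47 (SD, n = 4), with an interval of -0.36 to 0.35. Without removal of the array medians the turned mean was -0.09. The 2 spots of the probe differed by 0.012 to 0.19 on the 4 arrays. The other Cyp28d1 probes gave no value on any array. A model with treatment and dye together took the ratios as Cy5 over Cy3. Its treatment term was -0.37 and its dye term -0.00425 (limma adjusted p = 0.11 and 0.99). The same model called a dye term for 6.94% of the 591 probes. With the ratios as VGB over NF the 2 terms would change places. The model thus separates treatment from dye only if the direction of the ratios is known.

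Cyp6a20, a CYP3 clan P450 of the antennae known in flies for its link to male aggression, was near 0.2 on 3 arrays. It stood at 0.22, 0.24 and 0.26 on replicates 1, 2 and 4 and at -0.53 on replicate 3. Its spots agreed within 0.12 on every array, so the low value of replicate 3 was present on both spots. The mean was 0.18 ± 0.33 with replicates 3 and 4 turned and 0.05 ± 0.39 with all arrays as VGB over NF (SD, n = 4). The 95% intervals were -0.15 to 0.51 and -0.28 to 0.37, and limma adjusted p was 0.96 and 0.92. Without replicate 3 the turned mean was 0.07.

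Cyp6d5, the remaining CYP3 clan probe, had -0.21, -0.145 and 0.55 on replicates 2, 3 and 4. Replicates 3 and 4, of the same dye order, were on opposite sides of 0. The turned mean was -0.205 ± 0.35 and the other 0.06 ± 0.42 (SD, n = 3; limma adjusted p = 0.96 and 0.90).

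Cyp4d21, also called sxe1, is a CYP4 clan enzyme known for male-biased expression in the head, in cells around the nervous system, and for a role in courtship. It had -0.16, -0.57, -0.25 and 0.23 on replicates 1 to 4. Replicates 1 to 3 were low and replicate 4 was high. Its mean was about the same in both codings, -0.18 ± 0.33 turned and -0.19 ± 0.33 otherwise (SD, n = 4; 95% intervals -0.51 to 0.15 and -0.49 to 0.12; limma adjusted p = 0.96 and 0.56).

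Cyp4e2, another CYP4 clan P450, had the lowest turned mean of the 8 tested probes. It stood at 0.13 and -0.50 on replicates 1 and 2 and at 0.77 on replicate 4, which lay above 97.5% of the probes on that array. The turned mean was -0.38 ± 0.46 (SD, n = 3), with a 95% interval of -0.79 to 0.03 (limma adjusted p = 0.68). The mean was 0.13 ± 0.63 with all arrays as VGB over NF (SD, n = 3; limma adjusted p = 0.81). Replicate 4 carried much of the turned mean, which was -0.19 without it.

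Cyp4ae1 had 2 probes with values, and these disagreed. The probe on 3 arrays stood at -0.31, -1.14 and 0.0185 on replicates 1, 3 and 4, and the second probe at 0.73 on replicate 3, its only value. On that array the first probe lay above 4.35% of all probes and the second above 96.8%. The spots of the first differed by 0.25 and those of the second by 0.58, less than the distance between the probes. The mean of the first probe was 0.27 ± 0.77 turned and -0.48 ± 0.60 with all arrays as VGB over NF (SD, n = 3; limma adjusted p = 0.96 and 0.31). With both probes averaged into 1 gene the turned mean was -0.04, and it was -0.17 for the first probe without replicate 3.

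GstE12, an epsilon class GST, had 0.024, -0.67, -0.065 and 0.34 on replicates 1 to 4. Replicate 2 was low, with 6.95% of the probes of that array below it, and neither dye order held 1 sign. The means were -0.23 ± 0.34 and -0.09 ± 0.42 in the 2 codings (SD, n = 4; 95% intervals -0.56 to 0.10 and -0.43 to 0.24; limma adjusted p = 0.89 and 0.83). GstT4, of the theta class, had 0.31, 0.30, -0.16 and 0.53, so that 3 arrays were high and replicate 3 was low. Its mean was 0.06 ± 0.40 turned and 0.25 ± 0.29 with all arrays as VGB over NF (SD, n = 4; 95% intervals -0.29 to 0.41 and -0.05 to 0.54; limma adjusted p = 0.997 and 0.45). The turned mean was -0.025 without replicate 1 and -0.021 without replicate 2.

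**Figure D2:**
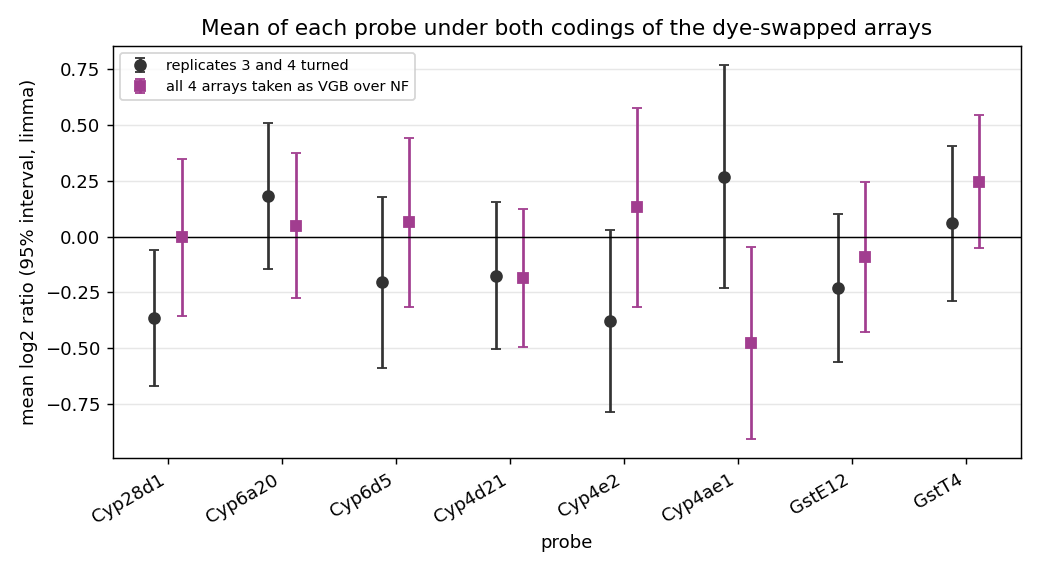
Mean log2 ratio of each probe with its 95% interval from limma, with replicates 3 and 4 turned (circles) and with all 4 arrays taken as VGB over NF (squares). The sign of the mean differs between codings for Cyp6d5, Cyp4e2 and Cyp4ae1, and the interval leaves out 0 for Cyp28d1 in the first coding and for Cyp4ae1 in the second.

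By family, 4 of 6 tested P450 probes had a mean below 0 with replicates 3 and 4 turned, with a median of -0.19, and 1 of 2 GST probes, with a median of -0.09. Of all 1114 tested probes 61.0% lay below 0, with a median of -0.04. With all arrays as VGB over NF, 3 of 6 P450 probes lay below 0, with a median of 0.022, and 1 of 2 GST probes, with a median of 0.08. The corresponding share of all tested probes was 36.0% and the median 0.07. On the values as deposited, with no median removed, the medians were 0.13 for P450 and 0.19 for GST probes in the turned coding. The median of all tested probes was then 0.20, and 22.6% of them lay below 0. The sign of both family medians therefore differed between codings and between centred and uncentred values. Under the other scalings tried, both medians stayed below 0 in the turned coding.

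The sign of single values differed within a dye order, which the coding cannot change. On replicate 4 all 8 tested probes lay above 0 (0.0185 to 0.77, median 0.43), while on replicate 3 only Cyp28d1 did and the other 6 measured probes lay below (-1.14 to -0.065). Of all tested probes 71.4% lay above 0 on replicate 4 and 55.3% on replicate 3. Over every member measured on both of these arrays, 6 of 9 were below 0 on replicate 3 and above 0 on replicate 4, against 27.1% of the 1177 probes on both, and 3 shared a sign, against 61.0%. The 3 were Cyp28d1, GstD1 and Cyp6u1. Replicates 1 and 2 shared a sign for 4 of 6 members, against 54.7% of all probes on both. The median of replicate 4 minus replicate 3 was 0.56 for these 9 members and 0.15 for all probes on both. No test was made of these shares.

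**Figure D3:**
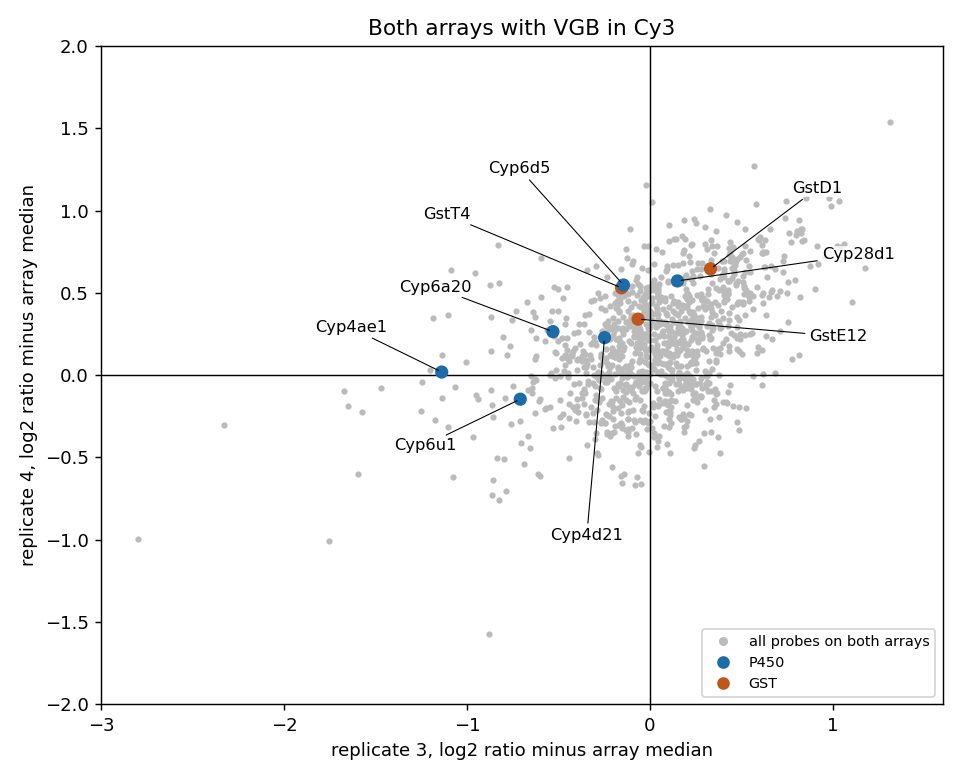
Log2 ratio minus the array median, sign as deposited, on the 2 arrays with VGB in Cy3, for the 1177 probes on both (grey) and the 9 P450 and GST probes among them. The upper left part, below 0 on replicate 3 and above 0 on replicate 4, holds 6 of the 9.

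Of the 8 probes on 2 arrays, 6 were measured once in each dye order. Among GSTs, GstE13 had 0.81 on replicate 1 and -0.26 on replicate 4. The first is the mean of spots at 1.70 and -0.08, so it rests on spots that did not agree. GstD9 had 0.14 and 0.43 on the same arrays. Among P450s, Cyp4c3 stood at -0.575 and -0.59 on replicates 1 and 4, Cyp4p1 at 0.56 and 0.0175, and Cyp4ad1 at -0.50 and -0.28 on replicates 2 and 4. The Cyp4c3 values lay above 6.34% and 4.80% of the probes on their arrays and differed little between dye orders. Turned, they give a mean of 0.00525, and taken as VGB over NF, -0.58. Cyp313a1 had the opposite form, with -0.47 on replicate 1 and 0.98 on replicate 3, the highest member value as deposited, above 99.1% of the probes on that array. Its mean was -0.73 turned and 0.26 otherwise.

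The remaining pair of 2-array probes was measured in 1 dye order alone. GstD1, the main delta class GST and the usual reporter of the oxidative stress factor CncC, had 0.33 and 0.65 on replicates 3 and 4. It was high on both, and its mean of 0.49 becomes -0.49 when turned. Cyp6u1, which lies outside the rule that chose which genes to name, had -0.71 and -0.15 on the same arrays.

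On single arrays the values reached farther. Among the 28 P450 probes on 1 array, 18 values lay below 0 and 10 above as deposited, with a median of -0.155. Turned, 14 lay below and 14 above, with a median of 0.04. As deposited they ran from -1.88 for Cyp310a1 on replicate 3 to 0.75 for Cyp6a23 on replicate 1, and turned from -1.80 for Cyp4g15 to 1.88 for Cyp310a1. The values of Cyp6a23 and Cyp4g15 came from 1 spot each. The 2 GST probes on 1 array were GstE3 at -1.77 and GstZ2, of the zeta class that acts in tyrosine breakdown, at -0.26, both on replicate 1. The 3 UGT probes stood at -0.23 for Ugt317A1, -0.20 for Ugt305A1 and -0.054 for Ugt316A1, all on replicate 4 and all positive when turned.

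**Figure D4:**
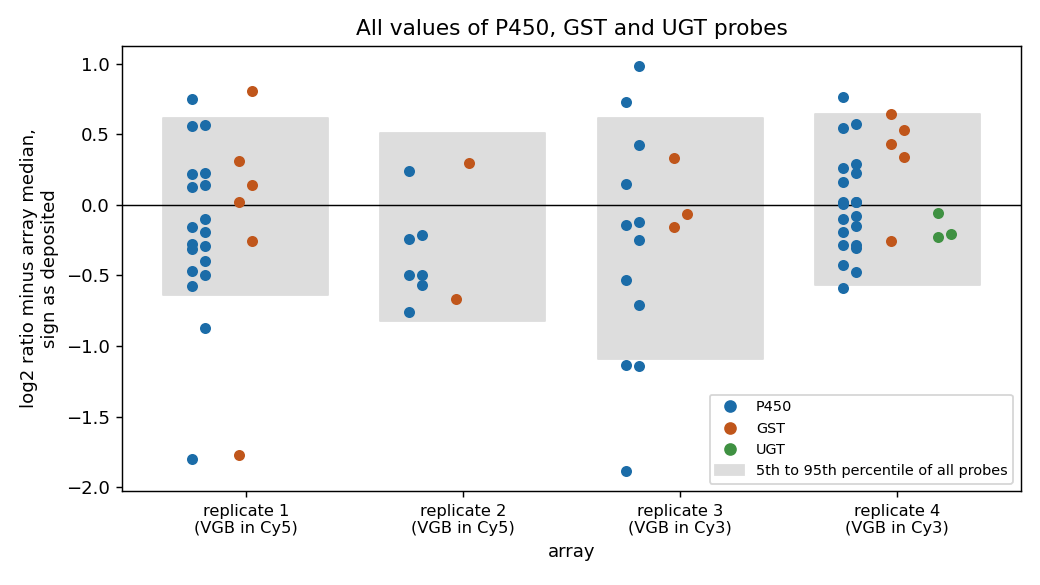
All 78 values of the 49 measured probes by array, with the sign as deposited, as log2 ratio minus the array median. Grey bars span the 5th to 95th percentile of all probes on the array. Most points lie inside the bars, and the values below -1 occur on replicates 1 and 3.

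Of all 78 values, 66 lay between the 5th and 95th percentiles of their arrays, 7 below and 5 above. A size over 1 was reached by 5 values (6.41%), against 3.14% of the values of all probes, and each of the 5 was negative as deposited. With replicates 3 and 4 turned, 3 of the 5, those on replicate 3, become positive. Besides the replicate 3 value of Cyp4ae1 they were Cyp310a1, GstE3, Cyp6t1 at -1.13 on replicate 3 and Cyp4g15 at -1.80 on replicate 1. Cyp4g15 belongs to the CYP4 clan and is known for expression in the nervous system. Its -1.80 came from 1 spot, and a second Cyp4g15 probe on the same array had -0.29. The 2 spots of Cyp310a1 stood at -1.01 and -2.76, those of GstE3 at -2.41 and -1.13, and those of Cyp6t1 at -0.86 and -1.40.

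Agreement of duplicate spots followed the number of arrays. For the 8 tested probes, the 29 pairs of spots differed by a median of 0.12 and at most 0.585. For member probes on 1 or 2 arrays, 8 of 45 pairs (17.8%) differed by more than 1. Over members on any number of arrays it was 8 of 74 pairs, against 3.95% over all probes and arrays. The share for all probes on 1 or 2 arrays was not computed. Besides GstE13, Cyp310a1, GstE3 and the replicate 2 value of Cyp4ad1, the 8 pairs included Cyp4p2, Cyp4e1, Cyp4d8 and the pseudogene Cyp6a16Psi. A further 4 member values came from a single spot.

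Other genes with several measured probes were Cyp4d20, at 0.16 and -0.42 on replicate 4, and Cyp4s3, at 0.29 on replicate 4 for 1 probe and -0.28 on replicate 1 for the other. The -0.42 of Cyp4d20 came from 1 spot. With the Cyp4ae1 and Cyp4g15 probes, the 3 genes with different probes on the same array differed by more than 0.5 there. P450 and GST genes have close relatives, and spotted cDNA can bind the RNA of more than 1 of them. Its part in these values was not tested.

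Many members lie in clusters in the genome, and pairs that are next to each other in the Release 6 gene order were compared where both had a value on the same array. Cyp28d1 and Cyp28d2 stood at 0.15 and 0.43 on replicate 3. GstD1 and GstD9 were at 0.65 and 0.43 on replicate 4, and Cyp6a23 and Cyp6a19 at 0.75 and 0.23 on replicate 1, the 0.75 from 1 spot. Cyp4e2 and Cyp4e1 had 0.13 and 0.14 on replicate 1, the latter from spots at 0.70 and -0.42. Other neighbours were on opposite sides of 0. Cyp4p1 and Cyp4p2 had 0.56 and -0.87 on replicate 1, where the spots of Cyp4p2 were at 0.15 and -1.90, and Cyp4e2 and Cyp4ad1 had 0.77 and -0.28 on replicate 4 after -0.50 each on replicate 2. Cyp4d2 and Cyp4ae1, with -0.08 and 0.0185 on replicate 4, were both close to 0, the first from spots at 0.26 and -0.42.

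Genes that work with these families were also tested in small numbers. Of 70 names in 6 lists of partner enzymes, conjugation, esterases, efflux transporters, regulators and antioxidant enzymes, 33 matched a single-gene probe, 20 had a value and 5 were measured on at least 3 arrays, with 6 probes. Limma called 0 of the 6 higher and 0 lower in either coding, and one-class SAM on the turned values called 0. At an unadjusted p under 0.05 limma had 2 of the 6 turned and 1 otherwise, against 8.44% and 14.0% of all tested probes. Papss, which makes the sulfate donor for sulfotransferases, had -0.25, -0.605, 0.23 and 0.79 on replicates 1 to 4. Like Cyp28d1 it lay on opposite sides of 0 in the 2 dye orders, with a mean of -0.47 ± 0.28 turned and 0.04 otherwise (SD, n = 4; limma adjusted p = 0.25 and 0.96). The 2 probes of UGP, which makes the UDP-glucose that UGTs draw on, had turned means of -0.31 ± 0.19 (SD, n = 4) and -0.08 ± 0.20 (SD, n = 3), with limma adjusted p of 0.58 and 0.997. The small Maf factor maf-S, partner of CncC, was above 0 on all 4 arrays as deposited (0.205, 0.63, 0.27 and 0.68), which gave -0.03 turned and 0.45 otherwise (n = 4; limma adjusted p = 0.997 and 0.16). Hnf4 was also above 0 on all 4 as deposited, with means of -0.11 and 0.21, and alpha-Est3 had 0.03 and 0.07. Efflux transporters and antioxidant enzymes had 0 probes on at least 3 arrays. Of the 9 names of P450 partners and steroid hydroxylases, among which shd and shade are the same gene, 0 matched a single-gene probe. No value could therefore be assigned to them here. Probes without a gene name or with several genes were not searched.

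Markers of head tissues gave values on at least 1 array for 4 of 5 photoreceptor probes, 4 of 4 glial and 2 of 2 neuronal probes. Markers of antennae and other head sensilla had values for 4 of 5 probes. Fat body markers had values for 6 of 13 probes and muscle markers for 2 of 3. Of tissues outside the head, gut and Malpighian tubule markers had values for 2 of 2 probes, neither on at least 3 arrays, and male reproductive markers for 0 of 3. Fat body is a main site of these enzymes in flies. Its tested markers lay on 1 side in the turned coding, below 0 like 61.0% of all tested probes. Those of head sensilla and photoreceptors did as well, and those of muscle did not. All 4 tested fat body probes, for the 3 genes apolpp, Desat1 and FASN1, were below 0 when turned. Their median was -0.55 turned and 0.07 otherwise. Their smallest limma adjusted p was 0.17 and 0.46. Limma called 0 in either coding, and one-class SAM called 0 on the turned values. At an unadjusted p under 0.05 limma had 4 of these 4 turned and 0 otherwise, against 8.44% and 14.0% of all tested probes. At the same cut, head sensilla markers had 2 of 3 turned and 0 otherwise, and photoreceptor markers 0 turned and 2 of 3 otherwise. The 3 tested probes of head sensilla, for the 2 genes Obp56d and Obp99c, were below 0 when turned. Their median was -0.46 turned and 0.22 otherwise. Photoreceptor markers were below 0 in 3 of 3 probes when turned, with medians of -0.14 and 0.39. Of the 2 tested muscle probes 1 was below 0 and 1 above, with a median of 0.10 turned and 0.11 otherwise. The 1 tested glial probe was at -0.04 turned and 0.075 otherwise. The first of the apolpp probes had -0.61, -0.83, 0.105 and 0.91 on replicates 1 to 4, the same order of signs as Cyp28d1. The part of RNA from these tissues in the P450 and GST values was not tested.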

How the data were processed

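Members and gene lists were chosen with earlier results of these data known. Per the series text, the authors quantified the arrays with GenePix Pro 6.0 and normalized ratios with Acuity 4.0, leaving out spots of raw intensity under 100. Spots were kept if saturated pixels stayed under 3%, the regression R2 reached 0.6 and signal over noise reached 3, and the authors tested with SAM 2.21. The deposited log2 ratios (base, centring and direction not stated) were averaged over the 2 adjacent spots of each of 13824 probes, and each array's median over all probes was subtracted. Probes were named from the platform annotation in GEO and updated by Entrez identifier through a Release 6 gene table: of 7558 single-gene probes 7447 matched, as did 106 of the 107 members. The order of genes in that table gave the neighbours, and no coordinates are printed.

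The test was limma 3.58.1 in R 4.3.3 (lmFit and eBayes, intercept only, two-sided, Benjamini-Hochberg over all 1114 probes on at least 3 arrays, threshold 0.05), with replicates 3 and 4 turned. It was checked on simulated data. With 4 arrays, their number limits the precision. P-values measure the spread between these 4 arrays, in which differences between pools of heads, arrays and dyes are mixed. Alternatives were the other coding, no centring, centring on tested probes or on runs of 576 spots taken as printed blocks, quantile normalization, other minimum numbers of arrays, gene level, single spots, a dye term, a one-class SAM over 16 sign changes and leaving out each array. Genes named were every member on at least 3 arrays, those on 2 arrays of opposite dye order, the highest and lowest of each family among the rest, genes with several probes, and companion genes on at least 3 arrays. Members beyond that rule are named as single values, chosen after their values were seen.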

Additional observations from a re-analysis of the deposited data

Results flagged for a closer look

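Cyp6a20 stood apart on replicate 3, at -0.53 against 0.22 to 0.26 on the other 3 arrays, when all 4 arrays were taken as VGB over NF. The gap exceeded Dixon's 95% limit for 4 values. With replicates 3 and 4 turned no value of Cyp6a20 did. In all, 13 sets of 4 values were looked at in this way and 1 stood out, where chance gives about 1 in 20. The sets were the 5 members on 4 arrays, each in both codings, and summaries per array. As they share values, the count cannot be compared directly with that rate.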

How the results depend on the processing

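The number of members past the threshold was 0 under every alternative listed, the range without any 1 array being 0 to 0. The count over all probes moved more. It was 4 of 1114 in the reported fit, 8 with the median over tested probes, 6 with quantile normalization and 1 with block centring. With a dye term, and the ratios taken as Cy5 over Cy3, it was 27 of 591 (1 higher, 26 lower). It was 15 of 565 at gene level and 2 of 591 on all 4 arrays. The count was 23 without replicate 2, 2 without replicate 1 and 0 without replicate 4. With at least 2 arrays, the other coding or no centring it was 0. Cyp28d1 and Cyp6a20 kept the sign of their means under all of them, although Cyp28d1 stood at -0.00425 in the other coding and -0.09 without centring. With all arrays as VGB over NF the mean turned to 0.063 for Cyp6d5, -0.48 for Cyp4ae1 and 0.13 for Cyp4e2. Without centring it turned to 0.0498 for GstE12, 0.16 for Cyp4e2 and 0.10 for Cyp4d21, and the P450 and GST medians moved to 0.13 and 0.19. By construction, removing no median leaves the arrays' offsets in, and the median of all tested probes was then 0.20. Block centring gave -0.000125 for GstT4 and gene level -0.0425 for Cyp4ae1, where the second probe enters. Leaving out 1 array, the means ran from -0.0248 to 0.26 for GstT4, -0.17 to 0.56 for Cyp4ae1, -0.44 to -0.30 for Cyp28d1 and -0.63 to -0.19 for Cyp4e2. They ran from -0.38 to -0.03 for Cyp6d5, -0.33 to -0.08 for GstE12, -0.32 to -0.05 for Cyp4d21 and 0.07 to 0.33 for Cyp6a20. The medians ran from -0.35 to -0.10 for P450 and from -0.17 to 0.03 for GST. The test is itself paired, since each array sets a treated pool against an untreated one, so no further replicate block was fitted. Single-array values have no replicate check.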
